A study of Homo sapiens with 54 samples.

Results

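The identity of prostate cells is tied to lineage transcription factors, and 8 of them were followed here by name in 54 xenograft tumours. FOXA1, HOXB13, GATA2 and GRHL2 are factors of luminal cells, and SOX9, SOX2, TP63 and KLF5 are known from progenitor, basal or other lineages. They were chosen by gene symbol, as 8 of the 60642 human symbols measured, and the rule sets no threshold on a measured value. Of the 8, 6 reached 1 TPM (a share of 1000000 transcripts, a relative measure of transcript abundance per length) in at least 8 tumours, as did 17131 genes in all. SOX2 and TP63 did not reach 1 TPM in any tumour.

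The tumours were grown from LNCaP, an androgen-sensitive line from a human prostate cancer metastasis, under the skin of male NOD-SCID mice, a strain without functional T and B cells. Every mouse carried cells of this single line, and each tumour came from a mouse of its own. PRE-CX tumours (n = 9) came from mock-operated mice with intact androgen supply, and every other group was castrated. POST-CX tumours (n = 8) were taken when serum prostate-specific antigen was lowest after castration. CRPC tumours (n = 10) were taken when the antigen was back at its level before castration or the tumour had reached its size limit. Castrated mice of the remaining groups received the antiandrogen enzalutamide at 10 mg/kg by mouth on 5 days a week, and tumours were taken at the second fall of the antigen (12 ENZS tumours) or once disease recurred despite treatment (15 ENZR tumours). Mice were 5 to 6 weeks old on arrival. Tumours of different groups are different mice, so no tumour was followed through the course of treatment.

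Reads were shared out between human and mouse transcripts, and the human symbols held 12.1% to 97.5% of the 1000000 TPM of a tumour (median 89.9%). ENZR mouse 87 (12.1%) and POST-CX mouse 91 (27.9%) stood far below the rest, which lowers every human gene in these 2 tumours. Results are therefore given as deposited, and also rescaled to a human total of 1000000, centred (each tumour's log2 values shifted to a common median) or without these 2 tumours for the factors and genes whose call changed, as stated beside them. Markers of luminal prostate cancer were present throughout, but not at 1 level. The 7 luminal markers summed to a median of 6155 TPM in PRE-CX, 3306 in POST-CX and 6976 in CRPC. Their sum had a median of 5026 TPM in ENZS and 3994 in ENZR. The luminal keratins KRT8 and KRT18 ran from 37.84 to 659.03 TPM and from 38.76 to 760.97 TPM over the 54 tumours. The basal keratin KRT5 did not exceed 0.13 TPM, and the neuroendocrine factor FOXA2 was listed at 0 in all 54 tumours. The 6 basal markers summed to 0.03 to 17.90 TPM per tumour. The 6 neuroendocrine markers were low but not level. Their sum had a median of 1.10 TPM in PRE-CX (0.73 to 1.41), 1.31 in POST-CX (0.89 to 7.35) and 1.45 in CRPC (1.10 to 1.82). It was 2.195 in ENZS (1.79 to 2.92) and 1.64 in ENZR (0.57 to 2.40). SYP, 1 of these markers, exceeded its highest PRE-CX value in 0 of 8 POST-CX, 5 of 10 CRPC, 12 of 12 ENZS and 11 of 15 ENZR tumours. Other markers of the list did so less often. In ENZS and ENZR the numbers were 6 and 1 for CHGA, 3 and 4 for NEUROD1, and 0 and 0 for INSM1.

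FOXA1 is a pioneer factor that opens chromatin for other factors, and HOXB13 and GATA2 bind near it at prostate enhancers. GRHL2 maintains epithelial junction genes. SOX9 acts in prostate bud growth, and KLF5 and TP63 belong to the basal layer of the normal gland, where TP63 is the defining factor. SOX2 is a stem cell and neural factor that has been studied in prostate tumours that lose their luminal state.

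The 250 bases upstream of the start site are shown for a pair of factors that were present in every tumour (FOXA1 and GATA2) and the pair that stayed near 0 (SOX2 and TP63), so that their promoters can be compared. The sequences are from RefSeq on GRCh38.p14, read 5′ to 3′ on the strand of the gene, with each CpG in capitals. Of the 8 factors, 5 had a match in the promoter table, with 7 windows between them. FOXA1 lies on the minus strand at chr14:37595250-37595499, GATA2 on the minus strand at chr3:128493202-128493451, SOX2 on the plus strand at chr3:181711675-181711924, and TP63 on the plus strand at chr3:189631139-189631388.
FOXA1: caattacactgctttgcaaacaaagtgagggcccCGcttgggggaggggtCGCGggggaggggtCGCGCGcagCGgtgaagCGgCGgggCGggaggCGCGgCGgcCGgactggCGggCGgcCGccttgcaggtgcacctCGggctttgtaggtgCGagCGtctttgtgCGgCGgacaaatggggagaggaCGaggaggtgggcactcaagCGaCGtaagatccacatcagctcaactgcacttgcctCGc
GATA2: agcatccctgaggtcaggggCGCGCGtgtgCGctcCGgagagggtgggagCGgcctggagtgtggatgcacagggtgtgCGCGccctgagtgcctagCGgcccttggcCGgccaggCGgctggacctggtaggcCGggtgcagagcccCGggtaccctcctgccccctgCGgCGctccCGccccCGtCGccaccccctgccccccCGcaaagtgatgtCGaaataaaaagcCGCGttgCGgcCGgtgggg
SOX2: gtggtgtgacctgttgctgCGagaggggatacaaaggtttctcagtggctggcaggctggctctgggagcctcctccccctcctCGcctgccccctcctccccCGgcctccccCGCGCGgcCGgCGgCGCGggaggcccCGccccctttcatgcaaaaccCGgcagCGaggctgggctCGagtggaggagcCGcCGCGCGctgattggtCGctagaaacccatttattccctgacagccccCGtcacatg
TP63: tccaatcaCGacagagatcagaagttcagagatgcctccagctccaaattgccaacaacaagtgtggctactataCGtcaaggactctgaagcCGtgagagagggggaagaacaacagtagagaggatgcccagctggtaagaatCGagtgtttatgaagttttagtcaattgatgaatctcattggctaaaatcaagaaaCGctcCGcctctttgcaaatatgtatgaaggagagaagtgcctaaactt
FOXA1 held 26 CpG and GATA2 24, against a median of 11 over all 35116 promoter windows of this length. SOX2, which was near 0 in these tumours, held 20 CpG, and TP63 held 6. GATA2 has a second window in the table, not shown, with 18 CpG. The TP63 window lies at a start inside the gene's span. The SOX motif ACAAAG, read on both strands, was found 3 times in the FOXA1 window and 1 time in that of SOX2, and in 13.7% of all promoters. Neither the forkhead motif TGTTTAC nor the GATA motif AGATAA was found in any of the 4 windows, and they were present in 2.98% and 9.17% of all promoters.

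FOXA1 was the most abundant of the factors in each group. FOXA1 lies at chr14:37589552-37595249 (GRCh38). In PRE-CX it ran from 174.73 TPM to 292.86 TPM with a median of 222.41, and in POST-CX from 80.86 to 322.02 with a median of 260.64. In CRPC FOXA1 spanned 165.60 to 302.36 TPM (median 244.94), in ENZS 174.91 to 350.69 (median 301.39) and in ENZR 31.36 to 373.49 (median 271.76). All 5 ranges overlapped, and the 2 lowest values belonged to the tumours with the smallest human totals. The mean of FOXA1 was 219 ± 39.6 TPM (SD, n = 9) in intact mice. After castration it was 236 ± 78.4 (n = 8) at the nadir and 240 ± 48.9 (n = 10) in CRPC, and on the drug 294 ± 54.0 (ENZS, n = 12) and 240 ± 80.9 (ENZR, n = 15).

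Against PRE-CX, none of the 4 other groups passed for FOXA1 (limma on log2(TPM + 1), an adjusted p under 0.05 with Benjamini-Hochberg adjustment over all genes). Of all genes tested, 4.33% passed in POST-CX, 7.43% in CRPC, 38.5% in ENZS and 29.1% in ENZR, against 0, 0, 2 and 0 of the 6 factors tested. The differences in mean log2 level were 0.03 in POST-CX (adjusted p = 0.976), 0.12 in CRPC (adjusted p = 0.878), 0.42 in ENZS (adjusted p = 0.173) and 0.01 in ENZR (adjusted p = 0.986). Their 95% intervals reached 0.90 in ENZS and did not fall below -0.51 in any group. With the tumours centred the intervals for FOXA1 were narrower, -0.21 to 0.21 in CRPC, -0.04 to 0.36 in ENZS and -0.24 to 0.15 in ENZR, and none passed. Rescaled to a common human total, however, FOXA1 rose by 0.45 on the log2 scale in ENZS (adjusted p = 0.000910) and by 0.25 in ENZR (adjusted p = 0.0492). Leaving out ENZR mouse 87 alone also brought FOXA1 in ENZS past the threshold (0.42, adjusted p = 0.0322). The call for FOXA1 in ENZS thus changed with the setting, and the median of all genes tested was itself 0.26 above PRE-CX there as deposited.

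HOXB13, a homeobox factor of the posterior body and the prostate, lies at chr17:48724763-48728750 and ranked second. Its mean level was 115 ± 14.4 TPM (SD) in the 9 PRE-CX tumours and 142 ± 42.4 in the 8 POST-CX tumours. It was 161 ± 27.9 in the 10 CRPC tumours, 166 ± 50.1 in the 12 ENZS tumours and 151 ± 74.5 in the 15 ENZR tumours. PRE-CX tumours lay between 95.91 and 138.90 TPM (median 111.18), CRPC tumours between 113.41 and 197.04 (median 155.375) and ENZS tumours between 100.50 and 239.62 (median 169.975). In CRPC 8 of 10 tumours and in ENZS 8 of 12 exceeded the highest PRE-CX value. HOXB13 did not pass in any comparison with PRE-CX as deposited, at 0.47 on the log2 scale in CRPC (adjusted p = 0.433) and 0.47 in ENZS (adjusted p = 0.203). With CRPC and PRE-CX fitted alone the same difference passed (adjusted p = 0.00265), and with ENZS and PRE-CX alone it also passed (adjusted p = 0.0111), while centring gave 0.35 (adjusted p = 0.183) and 0.22 (adjusted p = 0.311). Rescaling brought HOXB13 past the threshold in ENZS at 0.51 (adjusted p = 0.0212) but not in CRPC at 0.43 (adjusted p = 0.122).

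**Figure D1:**
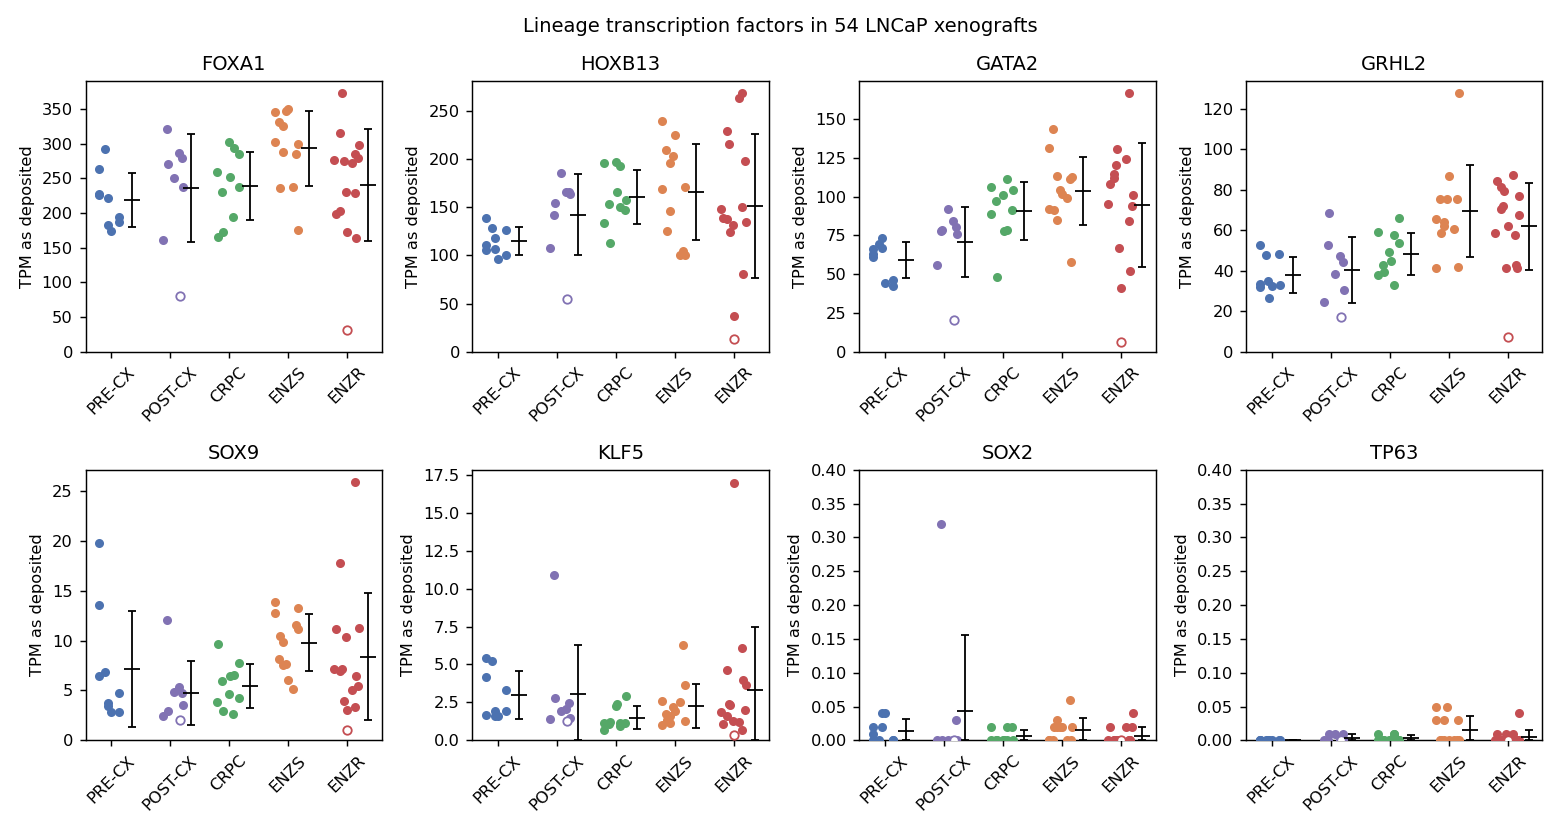
Level of each lineage factor in TPM as deposited (linear axes from 0) for 54 tumours, 1 point per tumour, in 5 groups, with the mean and SD to the right of each group (bars end at 0). Open circles are the 2 tumours with a human total under 50%. FOXA1, HOXB13, GATA2 and GRHL2 were present in every tumour, while SOX2 and TP63 stayed at or under 0.32 and 0.05 TPM.

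GATA2 and GRHL2 were the 2 factors that rose against PRE-CX as deposited, both in ENZS. GATA2, a zinc finger factor that acts with FOXA1, lies at chr3:128479422-128493201. In PRE-CX it ranged from 42.08 to 73.32 TPM (median 62.79), in POST-CX from 20.71 to 92.24 (median 78.255) and in CRPC from 48.41 to 111.18 (median 94.37). ENZS tumours had 57.84 to 143.45 TPM of GATA2 (median 103.12) and ENZR tumours 5.98 to 166.68 (median 101.15). The highest PRE-CX value was exceeded by 6 of 8 POST-CX, 9 of 10 CRPC, 11 of 12 ENZS and 11 of 15 ENZR tumours.

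GATA2 was higher in ENZS than in PRE-CX by 0.79 ± 0.29 (SE) on the log2 scale (adjusted p = 0.0274). In this comparison 30.3% of all genes tested passed upward, against these 2 of the 6 factors. The rise of GATA2 in ENZS held at 0.54 after centring (adjusted p = 0.00301) and at 0.83 after rescaling (adjusted p = 1.47e-05). Leaving out PRE-CX mouse 4 or PRE-CX mouse 9 ended the call (adjusted p = 0.0517 and 0.0501). In CRPC and ENZR the differences of GATA2 from PRE-CX were 0.60 (adjusted p = 0.267) and 0.45 (adjusted p = 0.232) as deposited. Without the 2 tumours of low human total they were 0.60 (adjusted p = 0.00999) and 0.70 (adjusted p = 0.000279), and both also passed after rescaling and after centring. ENZR mouse 87 alone decided both calls, at adjusted p = 0.0378 for CRPC and 0.00217 for ENZR without it, with the difference in CRPC unmoved at 0.60 and that in ENZR moved to 0.70. It enters the spread shared by all groups.

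GRHL2, a grainyhead-like factor of epithelial cells, had the lowest adjusted p of the 6 factors tested in ENZS against PRE-CX. PRE-CX tumours held 26.41 to 52.51 TPM (median 33.67), POST-CX tumours 17.26 to 68.40 (median 41.335) and CRPC tumours 33.11 to 65.90 (median 46.965). In ENZS GRHL2 ran from 41.30 to 127.74 TPM (median 64.795) and in ENZR from 7.30 to 87.19 (median 67.63). All 12 ENZS tumours and 14 of 15 ENZR tumours lay above the PRE-CX median, and 10 and 11 of them above the highest PRE-CX value.

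GRHL2 rose in ENZS by 0.83 ± 0.25 (SE) on the log2 scale relative to PRE-CX (adjusted p = 0.00678), and the call held in all 54 fits that left out a tumour. Relative to POST-CX it was higher in ENZS by 0.82 (limma, adjusted p = 0.0208), in a comparison where 19.7% of all genes tested passed. Only the deposited scale is given for this comparison. POST-CX mouse 91, of low human total, held 17.26 TPM of GRHL2 as deposited and 61.9 after rescaling. In ENZR GRHL2 was 0.58 above PRE-CX (adjusted p = 0.0643), in a comparison with 29.1% of genes passing, and 0.77 above without the 2 tumours of low total (adjusted p = 7.90e-05) or without ENZR mouse 87 alone (adjusted p = 0.000300). The difference between ENZS and CRPC, 0.49 as deposited (adjusted p = 0.228), was 0.35 after centring (adjusted p = 0.0418), in a comparison where 8.93% of genes passed as deposited, and without ENZR mouse 87 it passed at 0.49 (adjusted p = 0.0437). GRHL2 was the only factor of the 6 to pass the F test over the 5 group means (adjusted p = 0.0206), which 33% of all genes passed, and SOX9 followed at adjusted p = 0.0549.

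**Figure D2:**
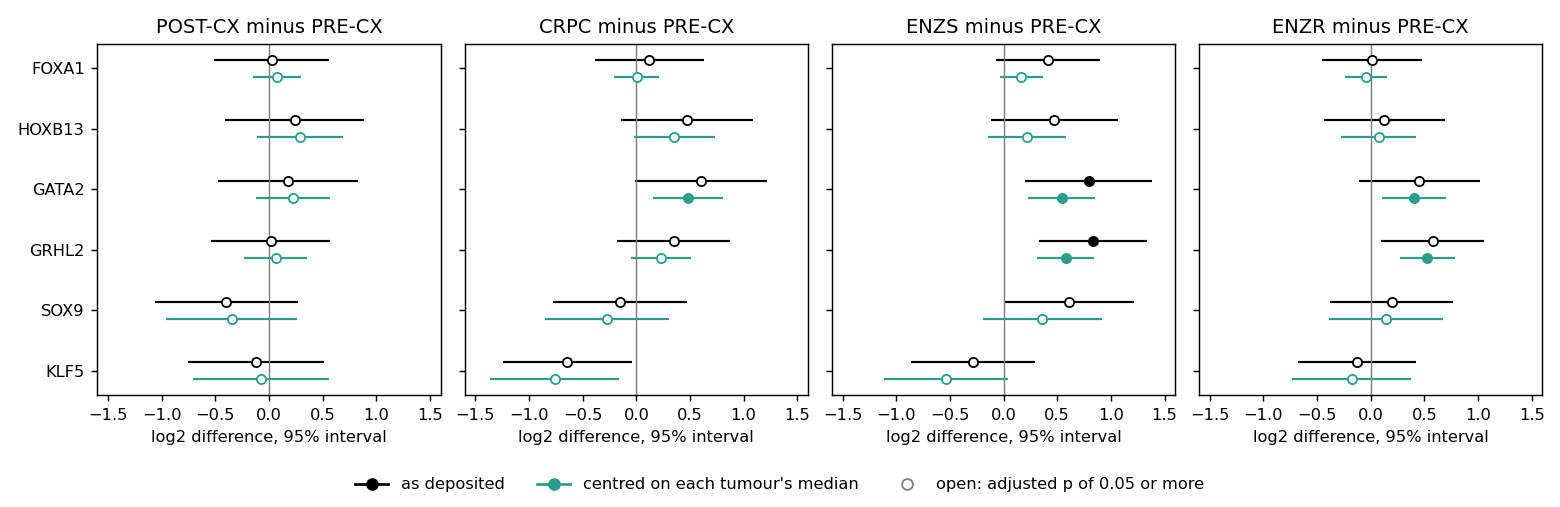
Difference of each group from PRE-CX in mean log2(TPM + 1) with its 95% interval from limma, for the 6 factors that passed the expression filter, as deposited (black) and centred on each tumour's median (green). Filled points have an adjusted p under 0.05. GATA2 and GRHL2 are filled in ENZS on both scales, and FOXA1 and HOXB13 are open in each panel.

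The order of the factors was nearly fixed. FOXA1 exceeded HOXB13 in 54 of 54 tumours, HOXB13 exceeded GATA2 in 51, GATA2 exceeded GRHL2 in 50 and GRHL2 exceeded SOX9 in 54. SOX9 exceeded KLF5 in 53 tumours. The full order held in 48 of 54 tumours. Among all 60642 symbols ranked within a tumour, the median rank was 409 for FOXA1, 783.5 for HOXB13, 1554 for GATA2, 2604.5 for GRHL2, 10424 for SOX9 and 13427.5 for KLF5.

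Ratios of 2 factors within a tumour do not depend on its human total, and some of them differed between groups. The log2 ratio of FOXA1 to GATA2 was 1.90 on average in PRE-CX and fell by 0.49 in CRPC (exact permutation test, n = 10 and 9, adjusted p = 0.0118 over 6 pairs and 7 comparisons). It was lower in ENZS than in PRE-CX by 0.39 (exact permutation test, adjusted p = 0.0134). In ENZR the difference of -0.44 did not pass (exact permutation test, adjusted p = 0.0651), although it did without the tumours of low total, at -0.51 (exact permutation test, adjusted p = 0.0122), and without ENZR mouse 75, at -0.48 (exact permutation test, adjusted p = 0.0414). In CRPC the ratio was also lower than in POST-CX by 0.34 (exact permutation test, adjusted p = 0.0488), a call lost with a rank-sum statistic (exact permutation test, adjusted p = 0.0643) and without the tumours of low total (exact permutation test, adjusted p = 0.0923).

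The log2 ratio of FOXA1 to GRHL2 was 2.55 in PRE-CX and 1.97 in ENZR, a difference of -0.58 that passed (exact permutation test, n = 15 and 9, adjusted p = 0.0118). In ENZS it was lower by 0.43 (exact permutation test, adjusted p = 0.0483), a call that a rank-sum statistic did not keep (exact permutation test, adjusted p = 0.0643). The ratio of FOXA1 to HOXB13 behaved differently. It was lower in CRPC than in PRE-CX by 0.36 on the log2 scale (exact permutation test, adjusted p = 0.0118) and then higher in ENZS than in CRPC by 0.30 (permutation test with 100000 resamples, adjusted p = 0.0483). Of the 42 tests of ratios 7 passed, and every one of them involved FOXA1. By design FOXA1 is in as many of the pairs as it is absent from. Tests with FOXA1 share its values, so the count is not a result about FOXA1 alone. All tests were two-sided.

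**Figure D3:**
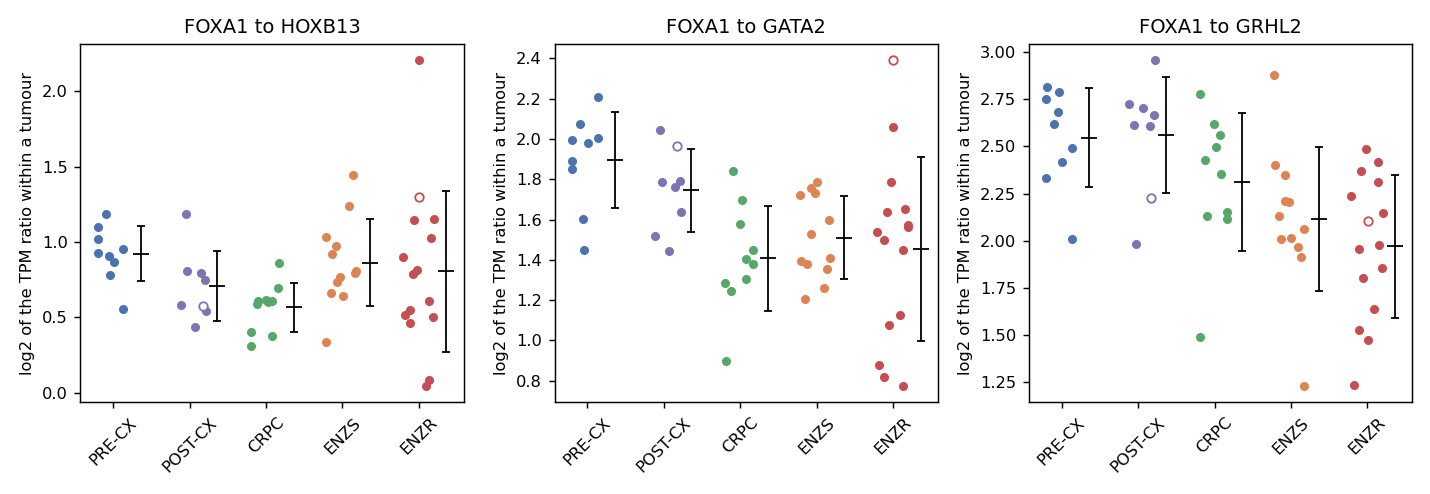
Log2 ratio of FOXA1 to HOXB13, GATA2 and GRHL2 within each of 54 tumours, 1 point per tumour, with the mean and SD to the right of each of the 5 groups and open circles for the 2 tumours with a human total under 50%. The mean ratio of FOXA1 to GATA2 is 1.90 in PRE-CX and 1.41 in CRPC, and that of FOXA1 to GRHL2 is 2.55 in PRE-CX and 1.97 in ENZR.

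SOX9, a factor of progenitor cells and of several glands (chr17:72121020-72126416), was present at low level in every tumour. It ran from 2.81 to 19.77 TPM in PRE-CX (median 4.76), from 2.02 to 12.08 in POST-CX (median 4.10) and from 2.65 to 9.61 in CRPC (median 5.30). ENZS tumours held 5.15 to 13.88 TPM (median 10.17) and ENZR tumours 1.08 to 25.88 (median 6.96). All 12 ENZS tumours lay above the PRE-CX median, but none lay above the highest PRE-CX value, which PRE-CX mouse 111 set. SOX9 was 0.61 ± 0.30 (SE) higher in ENZS than in PRE-CX on the log2 scale, which did not pass (adjusted p = 0.101), and it did pass without PRE-CX mouse 111 (0.81, adjusted p = 0.0275) or without PRE-CX mouse 112 (0.75, adjusted p = 0.0486). It also passed after rescaling (0.66, adjusted p = 0.0369), with array weights (adjusted p = 0.00444) and in a fit of the 2 groups (adjusted p = 0.0469), but not after centring (0.36, adjusted p = 0.279) or without the 2 tumours of low total (adjusted p = 0.0562). POST-CX mouse 91, of low human total, held 2.02 TPM of SOX9 as deposited and 7.24 after rescaling. Relative to POST-CX, SOX9 was higher in ENZS by 1.01 (limma, adjusted p = 0.0167), with only the deposited scale given. Relative to CRPC it was 0.76 higher (adjusted p = 0.0888), which passed without ENZR mouse 87 (adjusted p = 0.0407), without both tumours of low total (adjusted p = 0.0313) and after rescaling (0.84, adjusted p = 0.0129), but not after centring (0.63, adjusted p = 0.0809).

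KLF5, a zinc finger factor of basal and other epithelia (chr13:73054976-73077538), was low throughout and uneven. PRE-CX tumours held 1.58 to 5.46 TPM (median 1.96), and the mean was 3.04 ± 3.22 TPM (SD) in the 8 POST-CX tumours. It was 1.48 ± 0.75 in the 10 CRPC tumours, 2.28 ± 1.46 in the 12 ENZS tumours and 3.35 ± 4.10 in the 15 ENZR tumours. The CRPC range was 0.70 to 2.92 TPM, and 7 of 10 CRPC tumours were below the lowest PRE-CX value. The difference between CRPC and PRE-CX was -0.64 ± 0.30 (SE) on the log2 scale and did not pass (adjusted p = 0.212), whereas a fit of these 2 groups alone gave adjusted p = 0.0275. In this comparison 7.43% of all genes tested passed.

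SOX2 and TP63 stayed near 0. SOX2 was at most 0.32 TPM, in POST-CX mouse 99, and at most 0.06 TPM elsewhere. TP63 was listed at 0 in all 9 PRE-CX tumours and reached at most 0.01 TPM in POST-CX and CRPC, 0.05 in ENZS and 0.04 in ENZR. None of the 14 comparisons of SOX2 and TP63 passed (two-sided permutation tests of log2(TPM + 1), enumerated exactly for the comparisons with PRE-CX and POST-CX, lowest adjusted p = 0.360). Depth of the single tumours is unknown from TPM, so the smallest level that could have been seen is not given. SOX2-OT, the long RNA that overlaps SOX2, had a mean of 0.37 TPM in PRE-CX and 1.23 in ENZS, and whether counting used the strand is not stated in the sources used here.

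Between ENZS and ENZR, and between POST-CX and CRPC, none of the 6 factors passed in limma. Among all genes tested 3 passed between ENZR and ENZS (0.0175%), where 1914 had an unadjusted p under 0.05, and 0 between CRPC and POST-CX (0%), where 1154 genes had an unadjusted p under 0.05. No factor had an unadjusted p under 0.05 in either comparison. The largest differences of ENZR from ENZS were -0.42 for SOX9 (adjusted p = 0.489) and -0.41 for FOXA1 (adjusted p = 0.450), beside a median of -0.19 over all genes tested. ENZR was also set against POST-CX (3.4% of genes passing) and CRPC (3.1%), and none of the 6 factors passed, with GRHL2 at 0.56 (adjusted p = 0.244) and 0.23 (adjusted p = 0.703). The change at relapse on enzalutamide was also set against the change at relapse after castration. The difference between these steps ranged from -0.77 for GATA2 to 0.68 for KLF5, and no factor passed (lowest adjusted p = 0.278), in a test that 0.187% of all genes passed.

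Spread between tumours was larger in ENZR than in ENZS for all 6 factors, as the mean absolute deviation of log2(TPM + 1) from the group median, but no difference passed. It was 0.67 in ENZR and 0.33 in ENZS for SOX9 (permutation test, adjusted p = 0.354) and 0.61 and 0.23 for GATA2 (permutation test, adjusted p = 0.354). Without ENZR mouse 87 and POST-CX mouse 91, of which only the first is in these groups, the ENZR value for GATA2 was 0.38, for FOXA1 it was 0.26 in place of 0.45, for GRHL2 0.29 in place of 0.48, and for SOX9 0.58. For GRHL2 the direction turned after rescaling, with the spread in ENZR lower by 0.05.

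Single tumours departed from their group in these factors, and they are named here because of their values. ENZR mouse 75 had 16.99 TPM of KLF5, where the other 14 ENZR tumours had 0.35 to 6.10. It had 37.30 TPM of HOXB13 and 41.26 of GATA2, and rescaled to a common human total it was the lowest of all 54 tumours for both, at 39.3 and 43.5. Its human total was 94.9%. It was above the other ENZR tumours in 9 of the genes compared, below them in 4 and within their range in 79. The same tumour held 642.61 TPM of KLK2 and 106.07 of FKBP5, both androgen-induced, above the highest of the other ENZR tumours at 366.81 and 30.35. The androgen-induced genes STEAP4, at 9.13 TPM against at most 1.7, and SLC45A3, at 43.38 against at most 28.03, were above the other ENZR tumours too. Other androgen-induced genes, KLK3, TMPRSS2, PMEPA1, TRPM8 and ABCC4, were within the range of the other ENZR tumours. ABCC4 was at 54.35 TPM beside a median of 89.9 in the others. ENZR mouse 75 also held more of the epithelial factor EHF, at 311.14 TPM against at most 252.25, and more of SOX4, at 42.82 against at most 40.74. FOXA1 was at 172.13 TPM there as deposited, within the range of the other ENZR tumours. Rescaled, ENZR mouse 75 was the lowest of the ENZR tumours for FOXA1, at 181, and for SOX9, at 3.20.

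POST-CX mouse 99 was the highest of its group in FOXA1, SOX9, KLF5 and SOX2. Of the genes compared it was above the rest of its group in 35, below in 2 and within range in 51. KLF5 was at 10.91 TPM, where the other 7 POST-CX tumours had 1.30 to 2.76, and SOX9 at 12.08, where they had 2.02 to 5.35. It also held the most of the neuroendocrine factor INSM1, at 1.12 TPM against 0 in the rest, and the most of SOX4, at 88.01 against at most 40.87. Its KLK3, which encodes prostate-specific antigen, was the highest of the group too, at 2560.27 TPM against at most 1912.98. Without this tumour the difference of SOX2 between POST-CX and PRE-CX turned from 0.03 to -0.01 and did not pass in either case.

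**Figure D4:**
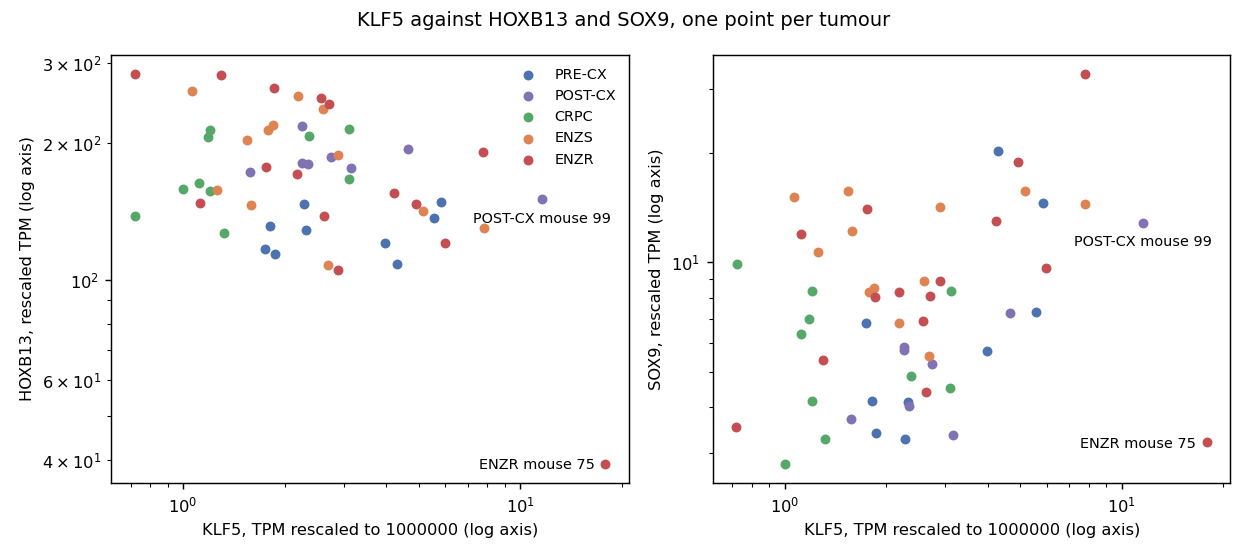
KLF5 on the x axis against HOXB13 (left) and SOX9 (right) in TPM rescaled to a human total of 1000000, both axes logarithmic, 1 point per tumour and 1 colour per group. ENZR mouse 75 stands alone at 17.9 of KLF5 and 39.3 of HOXB13, and POST-CX mouse 99 has the next highest KLF5, at 11.6.

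The other luminal factors and markers moved in both directions. They are described by lists set by name, beside shares of all genes tested that rose and fell of 30.3% and 8.18% in ENZS and 17.6% and 11.5% in ENZR. Of the 10 tested genes of the luminal list of 12, 3 rose and 2 fell in ENZS against PRE-CX, and 3 rose and 4 fell in ENZR. TBX3, a T-box factor, rose by 1.13 in ENZS (adjusted p = 0.000662). KLK3, an androgen-induced secreted protease gene, fell by 2.04 in ENZR (adjusted p = 0.00315), while KRT18 fell by 0.62 there (adjusted p = 0.0389) and KRT8 was at -0.56 (adjusted p = 0.0580). KRT8 fell after rescaling (-0.32, adjusted p = 0.00784), after centring (-0.62, adjusted p = 3.38e-07) and without the tumours of low total (-0.37, adjusted p = 0.0120). As a group, 9 of 10 androgen-induced genes fell in ENZS and all 10 fell in ENZR, with a median of -2.34 in ENZR beside 0.07 over all genes tested.

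Of the 18 genes of epithelial cells, the class that GRHL2 serves, 4 rose and 2 fell in ENZS and 0 rose and 3 fell in ENZR as deposited. In ENZR the numbers that rose and fell were 6 and 4 after rescaling, 2 and 8 after centring, and 5 and 4 without the tumours of low total. The median of the list in ENZS was 0.12, beside 0.26 over all genes tested. CDH1, which encodes the junction protein E-cadherin, rose by 1.03 in ENZS (adjusted p = 0.00213), from a mean of 231 TPM to 451. In ENZR CDH1 passed upward after rescaling (0.73, adjusted p = 0.000431), after centring (0.44, adjusted p = 0.00908) and without the tumours of low total (0.70, adjusted p = 0.000872), though not as deposited. KRT19 fell by 1.98 in ENZS (limma, adjusted p = 8.55e-06). KRT19 also passed downward in POST-CX (-2.43), CRPC (-1.58) and ENZR (-1.95). Among paralogs of the factors, 12 of 23 passed the filter, and 4 rose and 2 fell in ENZS. HOXC13, a relative of HOXB13, rose from 2.76 to 8.02 TPM in ENZS, by 1.09 on the log2 scale (adjusted p = 0.000418), and KLF4, a relative of KLF5, fell by 1.14 in POST-CX (adjusted p = 0.000468). GATA3, a relative of GATA2, was nearly absent in PRE-CX, at 0.02 TPM or less, and the highest of these values was exceeded by 2 of 8 POST-CX, 8 of 10 CRPC, 12 of 12 ENZS and 11 of 15 ENZR tumours. It lay between 0.16 and 1.26 TPM in ENZS, and its highest values were 0.07 TPM in POST-CX, 0.12 in CRPC and 4.55 in ENZR. GATA3 did not pass the filter and was not tested. The paralogs had a median of 0.15 in ENZS as deposited and of -0.11 after centring.

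Many factors of alternative lineages stayed below 1 TPM, and those present changed in both directions. Of 15 neuroendocrine factors, 6 were below 1 TPM in every tumour and 5 reached 1 TPM in at least 8 tumours. HES6 fell by 2.08 in POST-CX (adjusted p = 1.23e-05) and by 3.03 in ENZR (adjusted p = 1.79e-12), from a mean of 111 TPM in PRE-CX to 14.8 in ENZR. POU2F3, a factor of tuft cells, rose by 0.80 in ENZS (adjusted p = 2.71e-05), from 1.08 to 2.62 TPM.

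Of 16 basal genes 8 passed the filter, and in ENZS 2 rose and 1 fell. TRIM29 rose by 1.27 in ENZS (adjusted p = 0.000133), to a mean of 4.84 TPM, and LAMA3, a laminin chain, fell by 1.53 (adjusted p = 0.00561). KRT17 reached 13.99 TPM in ENZS mouse 80 and was at or under 1.26 TPM in the other tumours. The basal keratin KRT14 exceeded its highest PRE-CX value in 0 of 8 POST-CX, 4 of 10 CRPC, 2 of 12 ENZS and 1 of 15 ENZR tumours. It was 1.42 lower in ENZR than in CRPC (limma, adjusted p = 0.00340), where 3.1% of genes passed. Between CRPC and POST-CX, KRT14 was at 1.53 and did not pass (limma, adjusted p = 0.0602). Of 12 gut and liver factors 8 were below 1 TPM in every tumour. HNF4G rose by 1.01 in ENZR (limma, adjusted p = 1.98e-05), from 0.31 to 1.89 TPM, and ISX fell by 1.56 (limma, adjusted p = 3.56e-05). ISX also passed downward in POST-CX (-1.13), CRPC (-1.24) and ENZS (-1.15).

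Of 12 mesenchymal genes 5 passed the filter. SNAI2 and TWIST1, factors of the mesenchymal state, fell in ENZR by 1.87 (limma, adjusted p = 3.75e-14) and 2.08 (limma, adjusted p = 6.03e-07). Both also passed downward in POST-CX (-1.65 and -1.34) and in CRPC (-1.62 and -1.99). FN1, which encodes fibronectin, rose by 2.77 in ENZR (limma, adjusted p = 9.38e-08). FN1 also passed upward in CRPC (1.64) and ENZS (2.59). VIM rose by 2.16 in ENZS (adjusted p = 0.00417), and single tumours spanned 3.27 to 1018.09 TPM. Of 12 stem and plasticity factors 5 passed the filter. MYC fell by 1.72 in ENZS (adjusted p = 0.000609), from 94.8 to 31.9 TPM, and BMI1 rose by 1.11 (adjusted p = 0.000267).

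Genes that mark other cell types moved in the same samples. The only human cells injected were LNCaP, and whether mouse reads entered these human symbols was not tested. In ENZS the medians of the basal, gut and liver, mesenchymal and stem lists were 0.42, 0.61, 0.47 and -0.63, and that of the neuroendocrine list was 0.18 as deposited and -0.08 after centring. The summed level of 19 stroma and blood genes had a median of 11.8 TPM in PRE-CX (8.79 to 15.40), 17.7 in POST-CX (7.82 to 29.47), 26.3 in CRPC (15.88 to 93.53), 44.8 in ENZS (21.70 to 240.63) and 53.8 in ENZR (11.86 to 79.42). LUM, COL3A1 and DCN passed upward in CRPC, ENZS and ENZR. Their part in the rise of GATA2, GRHL2, FN1 and VIM was not tested, and in bulk tumours fewer cells of a type and less RNA per cell cannot be told apart.

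**Figure D5:**
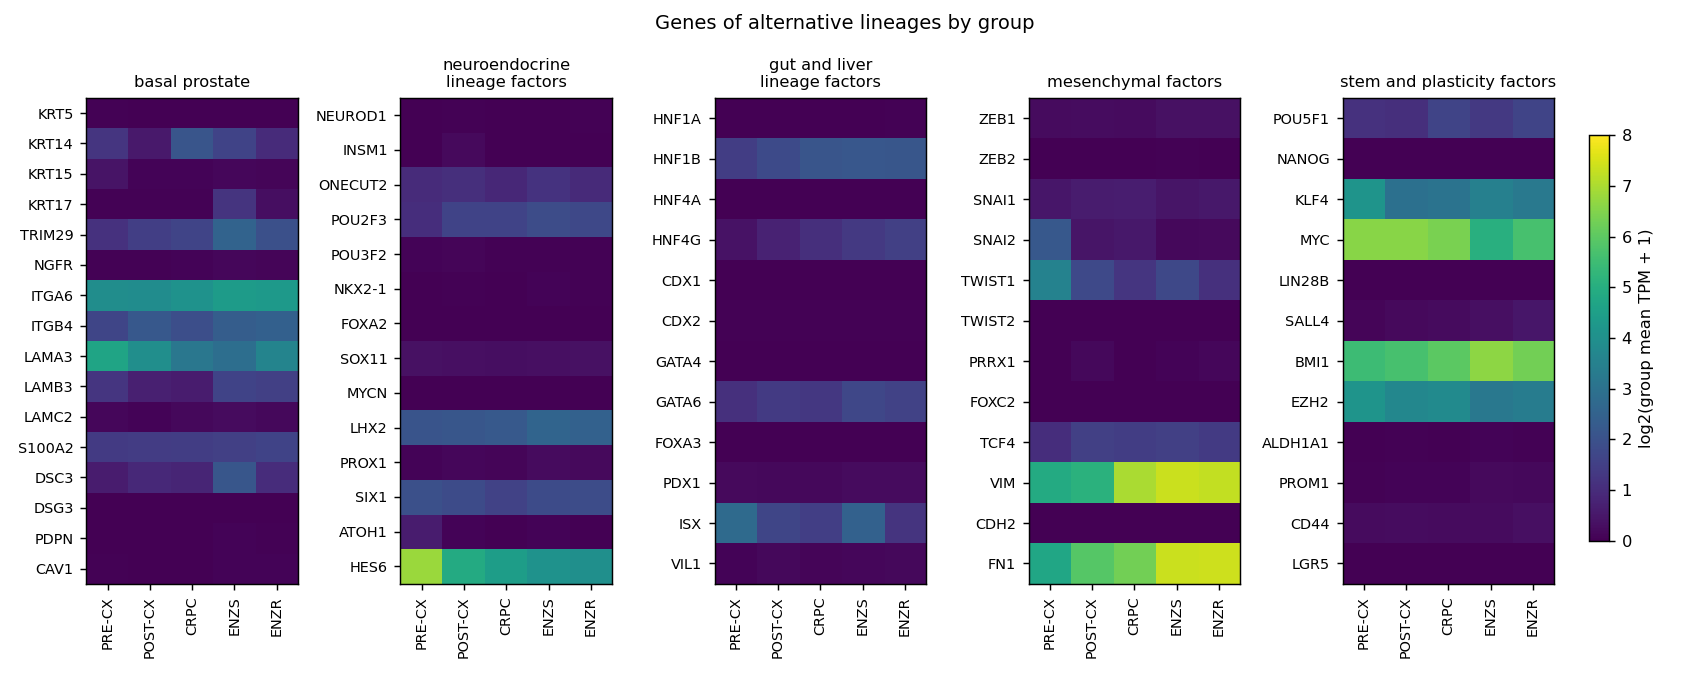
Mean level of 66 genes of alternative lineages in the 5 groups, as log2(group mean TPM + 1) on a colour scale from 0 to 8, in 5 lists. Most rows are near 0 in each group, while HES6, SNAI2 and TWIST1 are brightest in PRE-CX, and FN1 and VIM are brightest in ENZS and ENZR.

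The genes most alike to each factor were sought among 11159 genes with a mean of at least 5 TPM, by Pearson correlation of rescaled log2 levels over the 52 tumours with a human total of at least 50%. These tumours share treatment groups and the mouse host, so the values describe likeness only. For FOXA1 they were ATXN7L3B (r = 0.86), BAIAP2-DT (0.84) and PHF2 (0.84). For HOXB13 they were TLE5 (r = 0.83), MME (0.83) and FAM86C2P (0.83). GATA2 was most like FAM168A (r = 0.86), DCAKD (0.86) and PCSK6 (0.84), and GRHL2 most like NAXD (r = 0.84), JADE2 (0.83) and GZF1 (0.80). The likeness was weaker for SOX9, with OAT at 0.72, RAP1GAP at 0.69 and LMO4 at 0.66, and for KLF5, with FGFR1OP at 0.69, ABITRAM at 0.66 and ABCB10 at 0.65.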

How the data were processed

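RNA-seq of 54 LNCaP xenografts was used as deposited. The authors extracted total RNA, made stranded libraries of polyadenylated RNA, sequenced about 40 M read pairs per tumour, aligned reads with STAR to a joint index of GRCh38 (human) and GRCm38 (mouse), and estimated abundances by RSEM. The submitters' processing notes name FastQC 0.11.9, Trim Galore 0.6.5, STAR 2.7.2b and RSEM 1.3.3. The deposited values are TPM per human gene symbol from the authors, normalized to transcript length and to 1000000 over both species. Read depth cannot be recovered from TPM, and counting error is therefore left out.

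Groups were taken from the labels, and mouse numbers served as names. The 17131 genes that reached 1 TPM in 8 tumours were tested with limma 3.58.1 (R 4.3.3), with its trend option, on log2(TPM + 1) in 1 fit of 5 group means, and p was adjusted by Benjamini-Hochberg separately per comparison. Genes passed at an adjusted p under 0.05 and were called at an absolute log2 difference of at least 1. The pseudocount of 1 TPM understates changes of low genes. The 7 comparisons set each group against PRE-CX, CRPC against POST-CX, ENZS against CRPC and ENZR against ENZS, and comparisons of ENZS and ENZR with POST-CX and of ENZR with CRPC were added after the values were seen. SOX2, TP63, ratios and spread were tested by permutation (scipy 1.17.1). Both tests were tested on simulated data. Tumours of 1 group come from separate mice. The limma p-values judge a difference of means against the spread between tumours within groups, which all 5 groups share. RSEM divides reads among near-identical copies. Named genes were the 8 factors, KLK3, KRT8, KRT18, KRT5 and FOXA2, up to 3 called genes per list and comparison with the largest difference and a mean of at least 2 TPM, and the 3 genes most alike to each factor. POU2F3, HNF4G, GATA3, KRT14, KRT17, SYP, CHGA, NEUROD1, INSM1, SOX2-OT, and the genes given for ENZR mouse 75 and POST-CX mouse 99 were named after their values were seen. The factors and lists were chosen with earlier results of these data known. Alternatives were rescaling, centring, a pseudocount of 0.1 TPM, no filter, no tumours under 50% human total, array weights, fits of 2 groups and leaving out each tumour. Some genes that the rule also names are not reported here. Promoters came from RefSeq on GRCh38.p14.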

Additional observations from a re-analysis of the deposited data

Results flagged for a closer look

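In the groups of 8 to 10 tumours, each value of a factor was compared with its nearest neighbour relative to the range of the group (Dixon's test at 95%), in 23 groups of values. The test flagged 3 values, all of them in POST-CX mouse 99. Its nominal rate of 1 in 20 groups holds for normal values, and TPM were used here without a log. The 3 flags share 1 tumour, so they are not independent and are not set against that rate. SOX9 was at 12.08 TPM, where the next tumour of the group had 5.35. KLF5 was at 10.91 TPM, where the next had 2.76. SOX2 was above 0 in only 2 of the 8 tumours, at 0.32 TPM in this tumour and 0.03 in the next. The human total of POST-CX mouse 99 was 94.1%, and its part in these values was not tested.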

How the results depend on the processing

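No paired analysis was possible because no mouse number is shared between groups. Each setting below replaced 1 choice, except the combined ones and those without ENZR mouse 75 or POST-CX mouse 99, which were chosen after seeing the data. Against PRE-CX in ENZS, 2 of the 6 factors passed as deposited. That number was 5 after rescaling, 4 without the tumours under 50% human total, 5 with array weights, 5 in the fit of 2 groups, 5 with rescaling and without those tumours, and 1 to 3 when each tumour was left out. In CRPC it was 0 as deposited, 1 after rescaling, 1 after centring, 1 without the low tumours, 2 with weights, 3 in 2 groups, 1 and 1 in the combined settings, and 0 to 1 leaving out a tumour. In ENZR it was 0 as deposited, then 3, 2, 2 and 5 by rescaling, centring, leaving out the low tumours and weights, 3 and 2 combined, and 0 to 2 leaving out a tumour. In POST-CX it was 0, and 3 with weights and 1 with rescaling and without the low tumours. Between ENZS and CRPC it was 0, then 3, 1, 2 and 3 in the same order, 2 in 2 groups, 3 and 1 combined, and 0 to 2 leaving out a tumour. Shares of all genes passing rose in the same settings. In ENZS they were 61.6% rescaled, 57.9% without the low tumours, 65.2% with weights, 59% in 2 groups and 62.5% combined with rescaling, against 38.5% as deposited. In the settings just named they were 20.2% to 36.9% in CRPC, 51.4% to 63.5% in ENZR, 45.7% and 23.6% in POST-CX and 23.3% to 39.8% between ENZS and CRPC. Without ENZR mouse 87 the calls named in the report were gained. For ENZR against ENZS, CRPC against POST-CX and the relapse steps the number was 0 under every setting, and a pseudocount of 0.1 TPM or no filter moved no number.

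Some small differences changed sign, and no difference that passed was of the opposite sign to another that passed. FOXA1 passed upward in ENZR against PRE-CX rescaled (0.25), combined (0.26) and with weights (0.38), and in POST-CX with weights (0.39). FOXA1 in CRPC against POST-CX went from 0.10 to -0.22 rescaled, -0.071 centred, -0.11 without the low tumours, -0.12 with weights, and -0.22 and -0.094 combined (leaving out a tumour, -0.11 to 0.17). FOXA1 in ENZR against PRE-CX went from 0.01 to -0.044 centred and -0.0041 combined (-0.048 to 0.20), in POST-CX it ran from -0.053 to 0.23, and between the relapse steps it went from -0.50 to 0.017 rescaled and 0.033 combined. HOXB13 in CRPC against POST-CX became -0.074 rescaled and -0.060 combined, and in ENZS against CRPC -0.13 centred and -0.13 combined (-0.053 to 0.060). KLF5 became 0.011 and 0.016 in ENZR and 0.064 and 0.004 in POST-CX against PRE-CX, rescaled and combined, and ran from -0.012 to 0.27 in ENZR against ENZS. SOX9 in CRPC against PRE-CX became 0.025 with weights (-0.26 to 0.049), and GRHL2 in POST-CX ran from -0.11 to 0.17. SOX2 without POST-CX mouse 99 became 0.0025 in CRPC against POST-CX and -0.014 in POST-CX against PRE-CX. Among ratios, FOXA1 to GRHL2 in POST-CX turned to a difference in mean rank of -0.24, HOXB13 to GATA2 in ENZR against ENZS to -0.031 without the low tumours, and HOXB13 to GRHL2 there to 0.047 without ENZR mouse 75 and 0.15 in mean rank. The spread of GRHL2 became -0.050 rescaled and -0.0078 without the low tumours. The cause of the other changes was not tested. Single-tumour depth is unknown from TPM, which limits what can be said of SOX2 and TP63.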
